A study of Mus musculus with 20 samples.

Results

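Transcripts of 9 histone variant genes were followed through mouse pluripotent lines: H2afx, H2afz, H2afv, H2afy, H2afy2, H3f3a, H3f3b, H1f0 and Cenpa. They were taken by gene name, not by their values, and every probe that the array files assign to one of these names was used. These are 9 of 36413 gene names on the array and 16 of its 55681 probes, with 1 probe for 4 of the genes and several for the other 5. All 16 passed the filter on dim probes, which asked for a signal flagged as well above background on 4 or more of the 20 arrays. Of them 15 had that flag on every array, and the exception, an H2afy probe, had it on 18.

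Histone variants replace the canonical core histones in chosen nucleosomes and are made outside S phase as well as within it. H2A.X, the product of H2afx (now H2ax), is phosphorylated around DNA double-strand breaks, where it recruits repair factors. H2A.Z, encoded by H2afz and H2afv (now H2az1 and H2az2), sits at promoters and enhancers. MacroH2A, encoded by H2afy and H2afy2 (now Macroh2a1 and Macroh2a2), carries a large non-histone domain, is found on silent chromatin and is known as a barrier to reprogramming. H3f3a and H3f3b encode the same H3.3 protein, which is placed at active genes and at telomeres. H1f0 encodes the linker histone H1.0, which is typical of cells that divide slowly or have differentiated, and Cenpa encodes the H3 variant that marks centromeres. The deposition of H2A.X on chromatin has been studied as a mark of the quality of induced pluripotent stem cells (iPSCs). These arrays measured RNA and not deposition.

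Embryonic stem cells (ESCs) gave 3 lines and iPSCs 7, and RNA of each line was put on 2 arrays in 1 colour. All were kept in 2i, a medium with inhibitors of MEK and GSK3 that holds mouse cells in the naive state, with no feeder cells and no treatment. Poor quality was the label of KH2_OSKM, of Nanog-GFP OSKM#2 and of Oct4-GFP OSKM#2, good quality that of Nanog-GFP SNEL#3 and BC_2 OSKM, and high quality that of Oct4-GFP SNEL#1 and Nanog-GFP SNEL#2. The control ESC lines were named Oct4-GFP, KH2 and Nanog-GFP. OSKM stands for Oct4, Sox2, Klf4 and Myc, and SNEL for Sall4, Nanog, Esrrb and Lin28, the factors that reprogrammed the cells. All 3 poor lines were made with OSKM and both high lines with SNEL, so grade and factor set cannot be told apart across these 2 grades. The labels do not state how quality was graded, whether a line is 1 clone, or whether the paired arrays came from separate cultures. P values therefore measure the spread between these lines.

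The sequences that matter here are those of the probes, since a level belongs to the stretch of transcript that a probe covers. The first 30 bases of some 60-base probes are printed in lower case, 5′ to 3′ in the sense of the transcript, with nothing set in capitals. H2afx has a single probe, both H2afz probes are shown because they differ in how far the lines spread, and all H2afy probes because 1 of them is annotated to only some transcript variants.
H2afx: ctgtctggactgagcctctggcttctgaac
H2afz, brighter probe: ttggttttgtacagacattgtttccactct
H2afz, other probe: ctcactcagcaacaagtacattctctgctt
H2afy, brightest probe: gcagacaaatgtgaagaacttctagaaaag
H2afy, other probe to all variants: caaaaaggccaagtctccatcccagaagaa
H2afy, probe to some variants: tcgacagtgatgctgtcgttcacccgacaa
H2afy2: ggtgcttttctgttatagggtccccctccc

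In mm9, the build of the array files, the H2afx probe lies at chr9:44144033-44144092 on the plus strand and starts at base 1235 of its transcript. H2afx is known to give a short stem-loop transcript and a longer polyadenylated one. Its levels here are those of RNA that reaches this position, so they may leave out the short form. The H2afz probes lie at chr3:137529723-137529782 and chr3:137529827-137529886, plus strand. Those of H2afy lie at chr13:56184528-56184587, chr13:56205682-56205741 and chr13:56189613-56189672, minus strand, in the order printed. The probe printed last for H2afy is annotated to 2 of the 4 H2afy mRNA records that the brightest probe carries. The H2afz and H3f3a probes and 2 of the 3 H3f3b probes are also annotated to predicted transcripts, and the brighter H3f3a probe to Gm12657, so signal from near-identical copies may enter their levels.

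A level here is the log2 processed signal minus the 75th percentile of its array, which was 586.8 to 1076 in linear signal. The share of probes with a signal well above background was 48.9% on the weakest array and 77.2% on the strongest. Of the markers of the pluripotent state, 7 of 8 were named on the array and none of these was below background throughout a group, with summed levels of 8.605 to 9.01 over the 10 lines. The 10 fibroblast markers summed to 7.14 to 7.33 in poor lines, 7.64 to 7.66 in good, 7.39 to 7.82 in high and 7.44 to 7.55 in ESC lines, and Lum and Postn were not well above background on any poor or good array. These sums are of linear signals, so the brightest marker weighs most. It was Fn1, which alone read 6.63 in Oct4-GFP OSKM#2 to 7.56 in BC_2 OSKM. With each marker centred on its mean over the 10 lines, the mean of the 10 log2 values was 1.07 to 1.82 in ESC lines, 1.39 in Oct4-GFP SNEL#1 and -1.36 to -0.25 in the other 6 iPSC lines; its part in the results was not tested. In such bulk RNA, fewer cells of a type and less RNA per cell cannot be told apart.

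H2afx did not follow the quality grades. In the poor lines its level was 6.90 in Nanog-GFP OSKM#2, 7.20 in Oct4-GFP OSKM#2 and 6.26 in KH2_OSKM. The good lines stood at 6.36 in BC_2 OSKM and 7.07 in Nanog-GFP SNEL#3, and the high lines at 7.08 in Nanog-GFP SNEL#2 and 6.64 in Oct4-GFP SNEL#1. ESC lines stood at 6.87 in KH2, 6.84 in Nanog-GFP and 6.82 in Oct4-GFP cells. Thus the highest and the lowest line were both graded poor, all groups overlapped, and the ESC lines lay in the middle.

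The range of H2afx over the 10 lines was 0.94 on the log2 scale, or 1.92-fold, while paired arrays of a line differed by at most 0.24. Ordered by level, the arrays of neighbouring lines were apart in 5 of 9 steps and overlapped in 4. KH2_OSKM and BC_2 OSKM lay below every other line with no overlap of arrays, and Oct4-GFP SNEL#1 came next. The 3 ESC lines and Nanog-GFP OSKM#2 could not be ordered, nor could Nanog-GFP SNEL#3 and Nanog-GFP SNEL#2.

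Group means of H2afx were 6.79 ± 0.48 (SD, n = 3 lines) in poor, 6.72 ± 0.50 (n = 2) in good, 6.86 ± 0.31 (n = 2) in high and 6.84 ± 0.023 (n = 3) in ESC lines. The ESC lines varied less than the 7 iPSC lines, whose SD was 0.37. The same order of the SDs was seen for 11 of 16 histone variant probes (68.8%) and for 73.1% of all tested probes, and was not tested. Against ESC lines, limma gave a log2 difference of -0.06 for poor lines (95% interval -0.72 to 0.60, adjusted p = 0.988), -0.13 for good lines (-0.87 to 0.61, adjusted p = 1) and 0.02 for high lines (-0.72 to 0.76, adjusted p = 1). Good and high lines together differed from poor lines by 0.00 (-0.62 to 0.62, adjusted p = 0.999). The directions of these small differences changed with the scaling and with single lines: without KH2_OSKM the poor lines stood 0.21 above ESC lines, and without BC_2 OSKM the good lines 0.23 above them.

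Set by the factors, the mean level of H2afx was 6.93 ± 0.25 (n = 3) in SNEL lines and 6.68 ± 0.45 (n = 4) in OSKM lines, a difference of 0.25 (95% interval -0.29 to 0.79, limma adjusted p = 0.735). Within slide 1 the difference was 0.29 and within slide 2 it was 0.37, with no test. Slide 2 held no array of Oct4-GFP SNEL#1, the lowest SNEL line. The OSKM lines spanned the whole range of the SNEL lines and more. Against the ESC line whose name they share, Oct4-GFP OSKM#2 stood 0.37 higher and KH2_OSKM 0.61 lower, so lines made with 1 factor set lay on opposite sides.

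**Figure D1:**
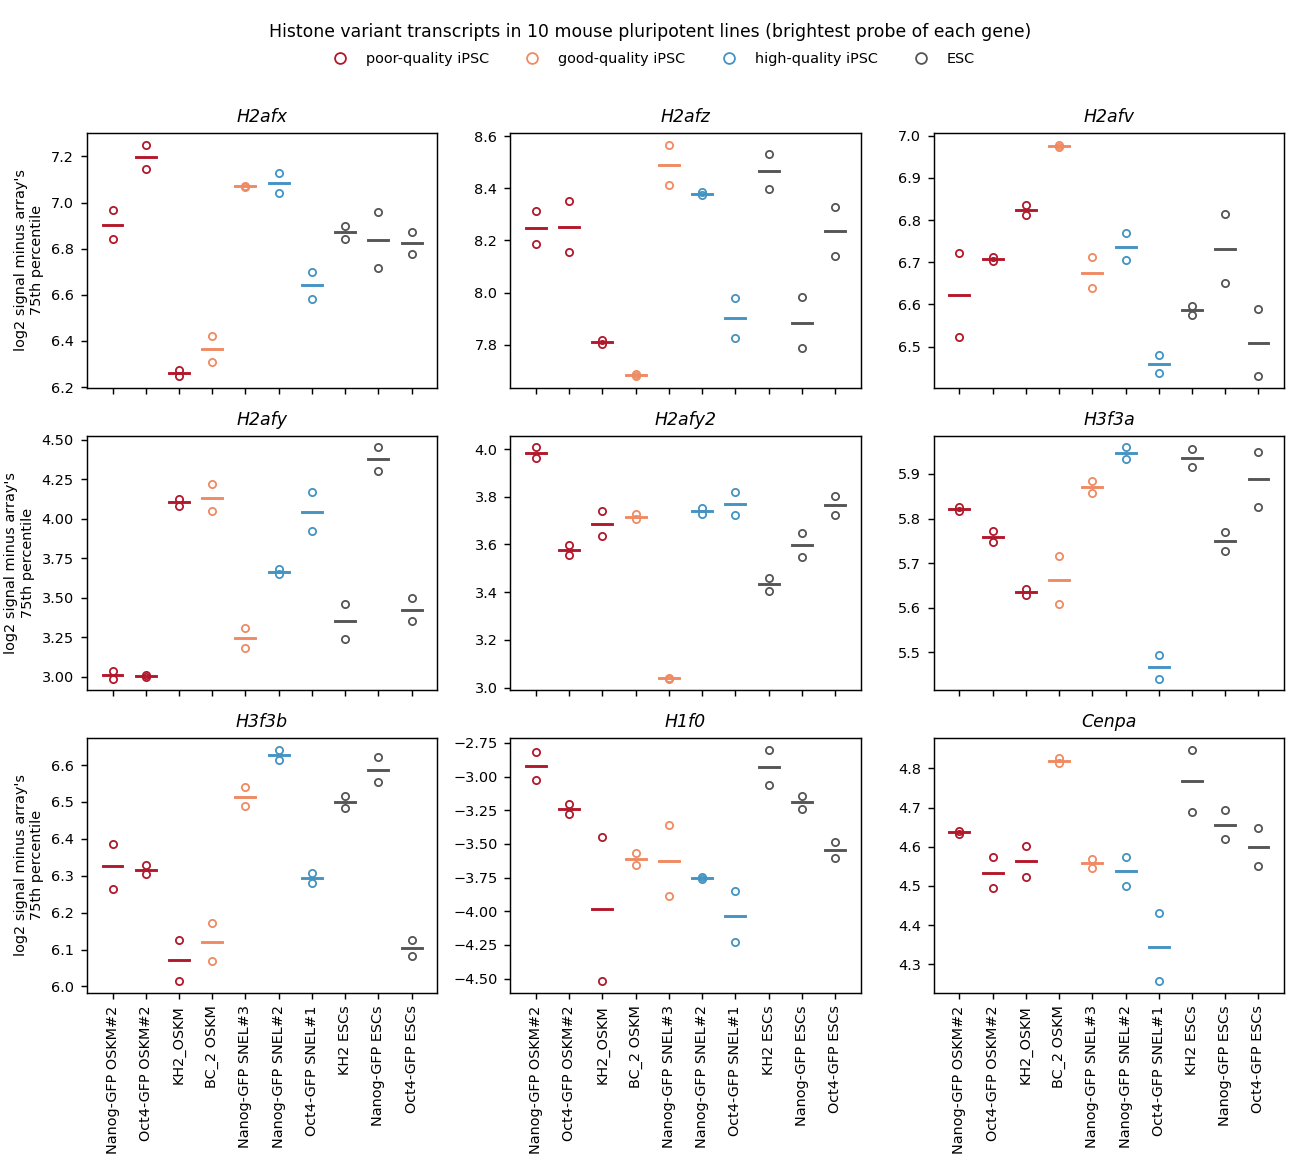
Level of the brightest probe of each of the 9 genes in the 10 lines, as log2 signal minus the 75th percentile of the array; open circles are the 2 arrays of a line, bars their mean, and each panel has its own scale. The H2afx panel runs from 6.26 in KH2_OSKM to 7.20 in Oct4-GFP OSKM#2, both graded poor.

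H2afz, the main H2A.Z gene, was also spread over lines rather than grades. Its brighter probe read 8.25 in Nanog-GFP OSKM#2, 8.25 in Oct4-GFP OSKM#2 and 7.81 in KH2_OSKM, and 7.68 and 8.49 in the good lines. It read 8.38 and 7.90 in the high lines, and 8.46, 7.88 and 8.23 in KH2, Nanog-GFP and Oct4-GFP ESCs. BC_2 OSKM and KH2_OSKM were lowest, the same pair of lines as for H2afx, but here the arrays of Nanog-GFP ESCs overlapped those of KH2_OSKM.

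The other H2afz probe gave a like pattern in larger steps, from 5.77 in BC_2 OSKM to 7.42 in KH2 ESCs. This range of 1.65 (3.13-fold) was the widest of the 16 probes, and paired arrays differed by at most 0.16. The correlation between the H2afz probes over the 10 lines was 0.97. SNEL lines stood 0.55 above OSKM lines by this probe (95% interval -0.28 to 1.37, limma adjusted p = 0.637), with means of 6.96 ± 0.50 (n = 3) and 6.41 ± 0.56 (n = 4). It was the largest difference of any of these probes between the factor sets and it did not pass the test. For the brighter probe the difference was 0.26.

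H2afv, the second H2A.Z gene, moved little by its brighter probe. Its brighter probe lay between 6.46 in Oct4-GFP SNEL#1 and 6.98 in BC_2 OSKM, and 7 of the 9 neighbouring pairs of lines had overlapping arrays. BC_2 OSKM and KH2_OSKM, lowest in H2afz, were highest in H2afv at 6.98 and 6.82. The dimmer H2afv probe ranged more widely, from -1.59 to -0.33 (2.41-fold). It put KH2_OSKM and BC_2 OSKM on top as well, though the probes correlated at only 0.54.

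H2afy, the main macroH2A gene, had the widest range among the brightest probes, 1.37 (2.59-fold). The poor lines read 3.01 in Nanog-GFP OSKM#2, 3.01 in Oct4-GFP OSKM#2 and 4.10 in KH2_OSKM. Good lines read 4.13 in BC_2 OSKM and 3.25 in Nanog-GFP SNEL#3, and high lines 3.67 in Nanog-GFP SNEL#2 and 4.05 in Oct4-GFP SNEL#1. Of the ESC lines, KH2 cells read 3.35, Nanog-GFP cells 4.38 and Oct4-GFP cells 3.43.

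The lowest lines in H2afy were thus a pair of poor lines and the highest an ESC line, and all groups overlapped. Nanog-GFP ESCs lay above all other lines with no overlap of arrays, and the arrays of KH2_OSKM overlapped those of its neighbours BC_2 OSKM and Oct4-GFP SNEL#1. The iPSC lines named Nanog-GFP all lay below the Nanog-GFP ESCs, by 1.36 (OSKM#2), 1.13 (SNEL#3) and 0.71 (SNEL#2) on the log2 scale. KH2_OSKM lay 0.75 above KH2 ESCs. Good and high lines exceeded poor lines by 0.40 with the brightest probe (95% interval -0.50 to 1.30) and by 0.43 with the other probe to all variants (-0.26 to 1.11, limma adjusted p = 0.918). The latter was the largest difference of the 16 probes in that comparison.

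The H2afy probe annotated to only some variants did not track the others. Its correlation over lines was 0.26 and 0.27 with them, against 0.98 between those. It was dim, missed the background mark on both arrays of Nanog-GFP SNEL#3, and its paired arrays differed by up to 0.93. In good lines it read -5.04 in both, and in ESC lines -4.28, -3.91 and -4.13, so these groups did not overlap. The difference of -0.93 (95% interval -1.75 to -0.12, limma adjusted p = 0.829) was the only one of the 16 probes in any comparison with an unadjusted p under 0.05, and it did not pass after adjustment. It shrank to -0.15 with normexp background and to -0.39 in the authors' value table.

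H2afy2, the second macroH2A gene, was set apart by 1 line. Nanog-GFP SNEL#3 read 3.04, against 3.58 to 3.98 in the other 6 iPSC lines, and its paired arrays differed by 0.0038. The poor lines read 3.98, 3.58 and 3.69, BC_2 OSKM 3.72, and the high lines 3.74 and 3.77. ESC lines read 3.43 in KH2, 3.60 in Nanog-GFP and 3.76 in Oct4-GFP cells. The same line read 3.25 in H2afy, above only 2 other lines, but H2afy and H2afy2 correlated at only 0.16 over the 10 lines. The H2afy2 probe differed between good and high lines and poor lines by -0.18 (95% interval -0.65 to 0.28, limma adjusted p = 0.948).

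The H3.3 genes varied little. H3f3a by its brighter probe ran from 5.47 in Oct4-GFP SNEL#1 to 5.95 in Nanog-GFP SNEL#2, so the extremes were the 2 high-quality lines, and the range was 0.48 (1.39-fold). H3f3b ran from 6.07 in KH2_OSKM to 6.63 in Nanog-GFP SNEL#2, with BC_2 OSKM at 6.12 and Oct4-GFP ESCs at 6.10 near its lower end. The interval for iPSC against ESC lines was -0.41 to 0.17 for H3f3a and -0.44 to 0.29 for H3f3b, around differences of -0.12 and -0.07.

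Probes of 1 gene did not always move together. The H3f3a pair correlated at 0.93 over lines, and so did the brighter H3f3b probes. The third H3f3b probe correlated at 0.03 and 0.28 with them. Its listed start, base 1738 of the transcript, and its mm9 position give different orders of the probes, so its place is uncertain. It was highest in Nanog-GFP ESCs (-0.77) and KH2_OSKM (-0.78). SNEL and OSKM lines did not overlap for the second H3f3b probe, at 3.97 to 4.23 against 3.77 to 3.92, a difference of 0.20 (95% interval -0.15 to 0.54, limma adjusted p = 0.677).

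By line means H1f0 lay lower in all SNEL lines than in ESC lines, and the difference did not pass the test. It read -2.92, -3.24 and -3.98 in the poor lines, -3.61 and -3.62 in the good lines, and -3.75 and -4.04 in the high lines. KH2, Nanog-GFP and Oct4-GFP ESCs read -2.93, -3.19 and -3.54. The mean of every good, high and SNEL line was thus below that of every ESC line, while poor lines spanned the ESC range. Single arrays were not apart: those of BC_2 OSKM and of Nanog-GFP SNEL#3 (-3.89 and -3.36) overlapped those of Oct4-GFP ESCs (-3.60 and -3.49). High lines differed from ESC lines by -0.67 (95% interval -1.42 to 0.07, limma adjusted p = 0.893) and SNEL lines by -0.58 (-1.22 to 0.055, adjusted p = 0.697), so neither passed. With normexp background these were -0.28 and -0.18, and within slides 1 and 2 they were -0.93 and -0.39 for high lines and -0.89 and -0.19 for SNEL lines. The only ESC array on slide 1 was of KH2 ESCs (-3.06). Slide 2 held Nanog-GFP and Oct4-GFP ESCs, and Nanog-GFP SNEL#2 as its only high line. The signal was weak: the arrays of KH2_OSKM read -4.52 and -3.45, a gap of 1.07, and the first of them had 77.21% of probes well above background against 58.25% on the second. The part of this in the result was not tested.

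Cenpa ranged least of the 16 probes, by 0.475 (1.39-fold), from 4.34 in Oct4-GFP SNEL#1 to 4.82 in BC_2 OSKM, and 8 of 9 neighbouring pairs of lines had overlapping arrays. It read 4.64, 4.53 and 4.56 in the poor lines. Line means lay at 4.34 to 4.56 in SNEL and at 4.599 to 4.77 in ESC lines, without overlap, as for 12.9% of all probes. The difference was -0.19 (95% interval -0.51 to 0.12, limma adjusted p = 0.854). Single arrays overlapped: the lowest of Oct4-GFP ESCs read 4.551, and the highest of Nanog-GFP SNEL#2 4.575. Oct4-GFP OSKM#2 and KH2_OSKM also lay below every ESC line, while Nanog-GFP OSKM#2 and BC_2 OSKM did not.

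Over all comparisons limma called 0 of the 16 probes after Benjamini-Hochberg adjustment over the 38756 tested probes, at a threshold of 0.05. Over all tested probes 0% were called in 6 of the comparisons, and 0.00516% in SNEL against OSKM lines, which were the 2 probes of Fgf22 and Grem1. With an unadjusted p under 0.05, 9.08% of all probes passed for poor against ESC lines, 5.8% for good against ESC, 5.6% for high against ESC and 5.31% for good and high against poor. The share was 9.4% for SNEL against OSKM, 7.62% for SNEL against ESC and 8.94% for iPSC against ESC lines. Among the 16 histone variant probes it was 1 for good against ESC lines (6.25%, near the background) and 0 in the other 6.

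Groups of lines that do not overlap were no more frequent among the histone variants than on the array as a whole. Of the 16 probes, 2 did not overlap for good against ESC lines (H1f0 and the H2afy probe to some variants), where 20.5% of all probes did not. For high against ESC lines it was 2 (H1f0 and Cenpa, 20.9% of all), for SNEL against ESC 2 (the same 2 genes, 12.9% of all), and for SNEL against OSKM 1 (H3f3b, 7.49% of all). None did so for poor against ESC lines, for good and high against poor or for iPSC against ESC lines, where 17%, 5.88% and 3.95% of all probes did.

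The median difference over the 16 probes was -0.12 for poor against ESC lines, with 13 of 16 lower, and -0.08 for iPSC against ESC lines, again with 13 lower. Over all tested probes the medians were -0.03 and -0.05. These comparisons share the ESC lines and most probes of a gene move together, so the counts are not independent. SNEL against OSKM lines gave 11 of 16 higher, with a median of 0.09 against -0.01 over all probes. In good and high against poor lines 8 were higher and 8 lower, and the median size of the difference was 0.046, against 0.20 over all probes.

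**Figure D2:**
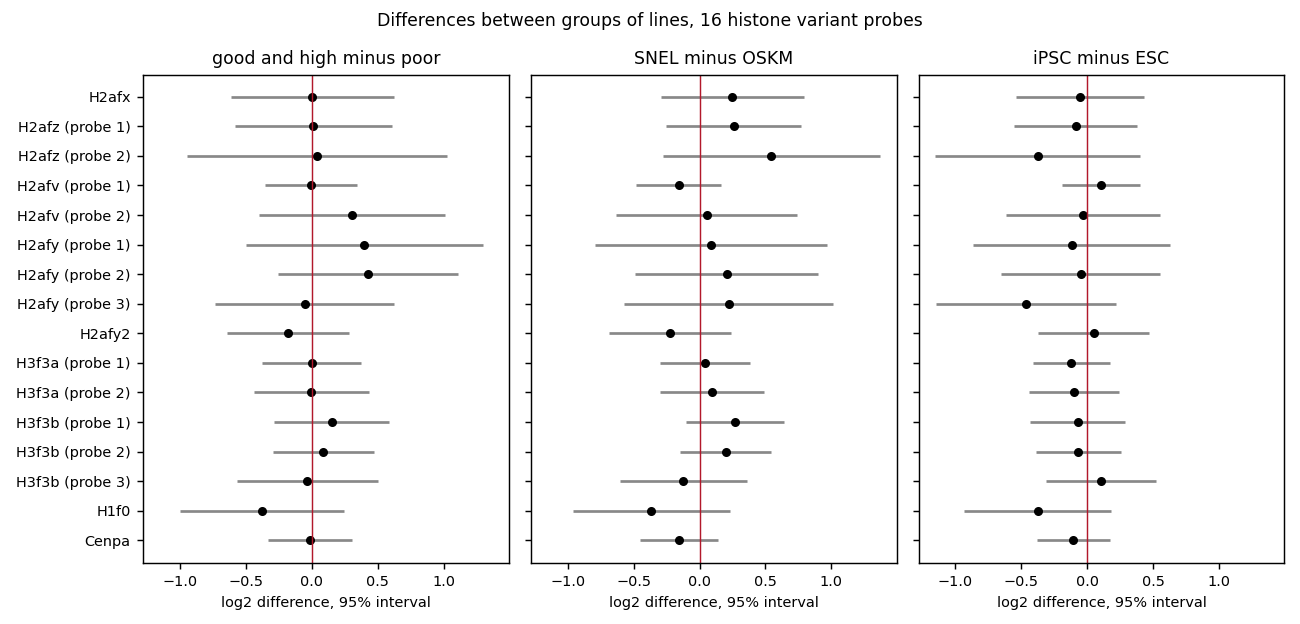
Log2 differences of the 16 histone variant probes for good and high against poor, SNEL against OSKM and iPSC against ESC lines, with 95% intervals from limma. All intervals of these 3 comparisons cross 0, and those of H2afx run from -0.62 to 0.62 in good and high against poor lines and from -0.54 to 0.43 in iPSC against ESC lines.

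The lines differed more than their paired arrays, which may be technical repeats. The median SD between line means was 0.27 for the 16 probes and the median SD between paired arrays 0.076, a median ratio of 3.45. Over 38598 tested probes with both values the medians were 0.38 and 0.20, with a ratio of 1.69. The SD between lines was the larger for all 16 probes, with ratios of 3.75 for H2afx, 4.98 for the brightest H2afy probe and 9.11 for the second H2afz probe. H1f0 (1.36) and the H2afy probe to some variants (1.49) had the lowest ratios. No comparison was made with probes of like signal, and the ratio was not tested.

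**Figure D3:**
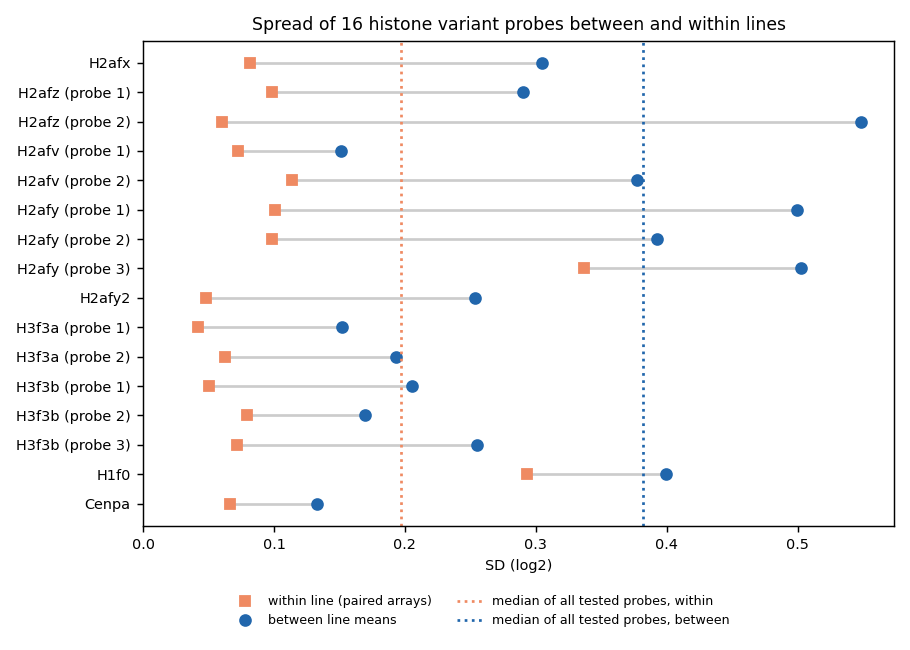
SD of each of the 16 probes between the means of the 10 lines (circles) and between the paired arrays of a line (squares), on the log2 scale; dotted lines are the medians over all tested probes. The second H2afz probe has the largest SD between lines, 0.55, with 0.060 within lines.

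H2afx, H2afz and H2afy were correlated with each other over the 10 lines at an unadjusted p under 0.05, and no pair passed after it. For H2afx with H2afz the values were positive (Pearson r = 0.82, Spearman rho = 0.81, permutation p = 0.00354 and 0.00703, n = 10 lines), and r was 0.62 without KH2_OSKM and BC_2 OSKM, the lines farthest from the median. For H2afy they were negative, with r = -0.69 and rho = -0.72 for H2afx (permutation p = 0.03 and 0.0239) and r = -0.80 and rho = -0.75 for H2afz (0.00919 and 0.0172). Without the same lines these r were -0.58 and -0.73. Of all 36 pairs among the 9 genes, 5 had an unadjusted p under 0.05 for r and 0 passed after adjustment over the 36. The adjusted p was 0.0848 for H2afx with H2afz, 0.229 for H2afx with H2afy and 0.11 for H2afz with H2afy. The other pairs with a low unadjusted p were H2afz with H3f3a (r = 0.80) and H2afx with H3f3b (r = 0.68). For the other H2A variants, r with H2afx was -0.39 for H2afv and -0.31 for H2afy2. Without KH2_OSKM and BC_2 OSKM these were 0.76 and -0.36, so the sign for H2afv depended on those lines.

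Some lines share a name such as Nanog-GFP, and all share slides and a scaling, so they are not fully independent. Over the 8 arrays of slide 1, r was 0.90 for H2afx with H2afz, -0.85 for H2afx with H2afy and -0.88 for H2afz with H2afy; on the 8 of slide 2 these were 0.77, -0.58 and -0.64. The 75th percentile signal of a line correlated with H2afx at -0.49, with H2afz at -0.62, with H2afy at 0.27 and with H3f3b at -0.61. The mean of the proliferation genes that passed the filter correlated with H2afz at 0.80, with H3f3a at 0.81, with H1f0 at 0.75, with H2afx at 0.58 and with H2afy at -0.75. The fibroblast marker mean correlated with H2afx at -0.10, with H2afz at -0.06 and with H2afy at 0.38. These are descriptions over 10 lines, and their part in the pattern was not tested.

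**Figure D4:**
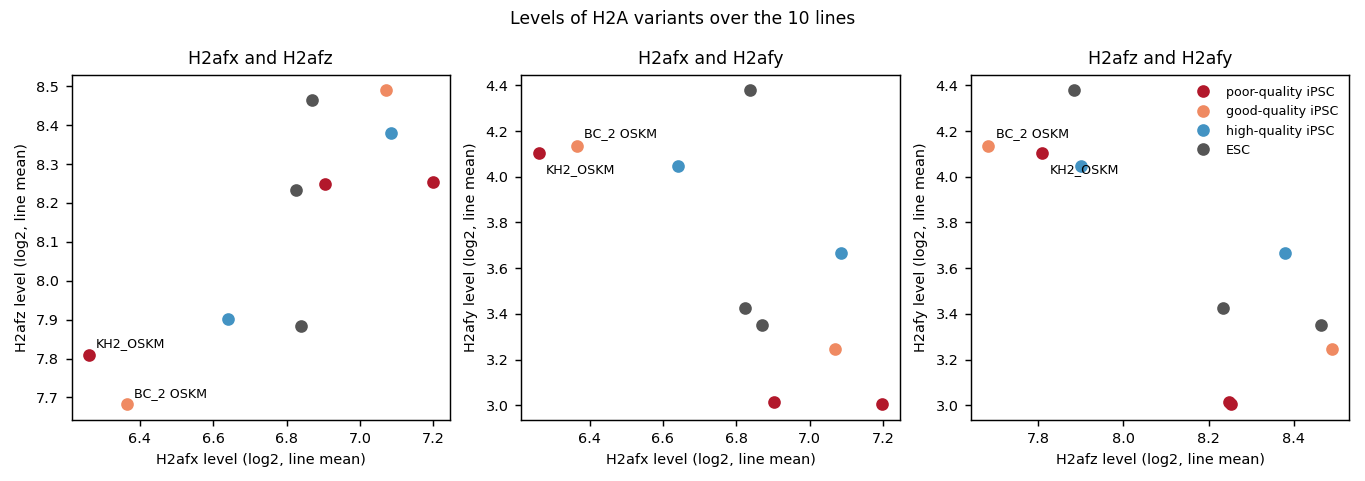
Levels of H2afx, H2afz and H2afy (brightest probes, log2, means of the 2 arrays) in the 10 lines, coloured by group. KH2_OSKM and BC_2 OSKM, graded poor and good, lie together at low H2afx and H2afz and at H2afy levels of 4.10 and 4.13.

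Among 27099 genes, the patterns most like that of H2afx over the 10 lines were those of Plcb1 (a phospholipase C, r = 0.95), Gm4879 (0.95), Enc1 (a kelch protein that binds actin, 0.94), 4833420G11Rik (0.94) and Rbm15b (an RNA-binding protein, 0.94). Enc1 read 2.88 in KH2_OSKM and 3.08 in BC_2 OSKM, its lowest lines, and 4.11 in Nanog-GFP SNEL#3, its highest. The most opposed were Ghitm (a protein of the mitochondrial inner membrane, r = -0.96), Nupr1 (a stress-responsive chromatin protein, -0.95) and Hif3a (a hypoxia-inducible factor subunit, -0.95). Hif3a read 2.77 in KH2_OSKM and 2.00 in BC_2 OSKM, and -0.40 in Nanog-GFP SNEL#2. Plcb1 was dim, at -7.02 in KH2_OSKM and -4.73 in Nanog-GFP SNEL#3, and the SD of Ghitm between lines was only 0.094. All these genes were picked as extremes, so the values carry no test.

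The genes that place, read or modify these variants gave no call either. Limma called 0 genes in every comparison from each of the 7 lists: H2A.X phosphorylation and its readers (18 of 18 tested), H2A.Z exchange factors (13 of 13), chaperones of H3.3 and of H3 in general (13 of 13), CENP-A deposition and inner kinetochore (12 of 14), macroH2A partners (7 of 7), other histone variants (7 of 13) and proliferation (14 of 15). At an unadjusted p under 0.05 each list held at most 1 gene per comparison. The 6 marker lists also gave 0 calls, though 9 of 10 fibroblast markers were lower in poor than in ESC lines (median -3.18). Of the 10, 7 had an unadjusted limma p under 0.05. Good against ESC lines gave the same counts (median -3.01). For high against ESC lines 8 were lower (median -0.79), with 0 at that p. Over all probes the shares at that p were 9.08%, 5.8% and 5.6%. The 2 fibroblast markers with the smallest p, both in poor against ESC lines, were collagen genes. They were Col3a1 (-4.62, adjusted p = 0.229) and Col1a2 (-4.45, adjusted p = 0.229).

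The H3 list holds the H3.3 chaperones together with Chaf1a and Chaf1b, which place canonical H3 during replication, and the general factors Nasp, Ssrp1 and Supt16h. Of its 13 genes, 10 had a higher mean in SNEL than in OSKM lines and 0 were called; the median difference was 0.21, against -0.01 over all probes. Hira, the core of the complex that places H3.3 at genes, had the second smallest p of that list. It read 0.56 in KH2_OSKM and 0.81 in BC_2 OSKM, 1.499 and 1.66 in the other OSKM lines, and 1.94, 1.91 and 1.26 in SNEL lines, a difference of 0.57 (SE 0.32, limma adjusted p = 0.586). Asf1b, which hands H3 and H4 to other chaperones, differed by -0.525 between high and ESC lines (adjusted p = 0.907).

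Of the genes that act on H2A.X, Ppm1d, a phosphatase that removes its mark, differed by 0.49 between SNEL and OSKM lines (SE 0.21, limma adjusted p = 0.52). Rad50, of the complex that senses breaks, differed by 0.74 between iPSC and ESC lines (SE 0.36, adjusted p = 0.612), where Nanog-GFP ESCs at 1.51 lay within the iPSC range and KH2 and Oct4-GFP ESCs lay at 0.34 and 0.16. Of the exchange factors for H2A.Z, Ep400 differed by -0.36 between poor and ESC lines (adjusted p = 0.613) and Vps72, which binds H2A.Z, by 0.32 between good and ESC lines (adjusted p = 0.935).

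Cenpi, a kinetochore protein that sits on CENP-A chromatin, differed by 0.43 between good and high lines and poor lines (SE 0.15, limma adjusted p = 0.913), and Cenpm by 0.24 between iPSC and ESC lines (adjusted p = 0.702). Kdm1a, a histone demethylase, differed by -0.59 between high and ESC lines (adjusted p = 0.883) and Hdac1, a histone deacetylase, by -0.33 between SNEL and ESC lines (adjusted p = 0.741).

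Hist1h2aa, a testis H2A, had the smallest p of the 7 lists. It read -2.61, -2.59 and -2.48 in the ESC lines and -3.87 to -2.75 in the iPSC lines, without overlap. Of all tested probes, 3.95% did not overlap in that comparison. The difference of -0.78 (SE 0.23, limma adjusted p = 0.307) did not pass. H1foo, the oocyte linker histone, differed by 0.295 between SNEL and OSKM lines (SE 0.17, adjusted p = 0.595). Cdk1, the kinase of mitotic entry, differed by -0.74 between iPSC and ESC lines (SE 0.25, limma adjusted p = 0.373). It read 2.22 in Oct4-GFP SNEL#1, above the ESC lines at 1.955 to 2.18, and 0.95 to 1.43 in the other iPSC lines. Plk1 differed by -0.49 between high and ESC lines (limma adjusted p = 0.907).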

How the data were processed

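Total RNA (RNeasy columns, Cy3 label) of 7 iPSC and 3 ESC lines was hybridised to 20 Agilent 1-colour arrays on 3 slides. Per the file headers, the deposited scanner files hold each spot's intensity after background subtraction by Feature Extraction 10.1.1.1, with probe coordinates in mm9. The values in the deposited table of the series are on a log2 scale; the submitters' processing notes name limma with no version, and its other steps are not given in the sources used here. Its column medians were 6.2663 to 6.2801 and its ranks followed the scanner signal (lowest Spearman correlation 0.9984), with no centring or direction to undo.

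Of 62976 spots, 59305 were not controls. They gave 55681 probes after repeated spots were averaged. Flagged values were set to missing (563 probes, 0 values of the histone variants), and saturation was seen for 0 probes. Log2 signals were set relative to the 75th percentile of each array, and probes well above background on at least 4 arrays were tested (38756). Precision is limited by the 2 or 3 lines per grade.

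The mean of the paired arrays stood for a line, and lines were the replicates. All fits used limma 3.58.1 (R 4.3.3), all 10 lines in each of 3 models (grade, factor set, iPSC against ESC), 7 comparisons and P values adjusted by Benjamini and Hochberg over all tested probes. All 9 genes matched a current symbol through RefSeq. Text names all 16 probes, leads with the brightest per gene, and from each of 7 gene lists and 6 marker lists gives called genes or else the 2 with the smallest p. Of the marker lists, only those a result touches are named. Correlations over lines used 100000 permutations. The fit was tested on simulated data for poor against ESC lines only. The simulated noise was smaller than the real spread between lines, so it does not show what size of difference could be detected here. The genes and lists were chosen with earlier results of these data known. Alternatives were normexp background, quantile normalization, the authors' value table, other filters, gene-level testing, slide and replicate blocks, and each line left out. The settings tried on correlations were chosen after seeing the data.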

Additional observations from a re-analysis of the deposited data

Results flagged for a closer look

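H2afy2 in Nanog-GFP SNEL#3 stood apart from the other iPSC lines. At 3.04 it was lower than the other 3 good and high lines, which lay at 3.72 to 3.77, and than the other 6 iPSC lines, which lay at 3.58 to 3.98. The gap to the nearest line was 0.927 of the range among the 4 good and high lines and 0.569 of the range among the 7 iPSC lines, where 0.829 and 0.568 are the limits used. Of 48 groups of line means screened, these were the only 2 past the limit, they concern the same line, and chance puts about 1 group in 20 past it. Both arrays of the line gave the low value. KH2 ESCs, at 3.43, lay nearer to it than any other iPSC line did. Nanog-GFP SNEL#3 also had the lowest share of probes well above background of all lines, 50.15%. Over the lines H2afy2 correlated with that share at 0.55, and its part in the low value was not tested.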

How the results depend on the processing

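The count of histone variant probes called was 0 under every alternative and comparison, including the replicate block on 20 arrays, where it was also 0. The directions of H2afx turned in several settings. For poor against ESC lines (-0.06) it became 0.0464 with quantile normalization, 0.0743 with the authors' value table and ranged from -0.26 to 0.21 with single lines left out. For good against ESC lines (-0.13), leaving out lines gave -0.48 to 0.23. For high against ESC lines (0.02) it became -0.0062 with normexp and -0.0148 with slide as a block, and -0.20 to 0.24 with lines left out. For iPSC against ESC lines (-0.06) it became 0.0067 with quantile normalization, 0.0137 with the authors' table, and -0.12 to 0.0324 with lines left out. For good and high against poor lines (0.00) it was -0.0275 with normexp, -0.0696 with quantile normalization and -0.11 with the authors' table, and -0.26 to 0.21 with lines left out. On slide 3 alone, high against ESC lines gave -0.20. The differences for SNEL against OSKM lines (0.07 to 0.42) and SNEL against ESC lines (0.01 to 0.23) stayed positive. The largest difference among the 16 probes in each comparison kept its direction but not its size. For the H2afy probe to some variants, good against ESC lines (-0.93) ranged from -1.20 to -0.15, poor against ESC lines (-0.43) from -0.88 to -0.08, the latter without Nanog-GFP OSKM#2, and iPSC against ESC lines (-0.46) from -0.83 to -0.06. For H1f0, high against ESC lines (-0.67) ranged from -0.93 to -0.28 and SNEL against ESC lines (-0.58) from -0.89 to -0.18. The other H2afy probe in good and high against poor lines (0.43) ranged from 0.26 without Nanog-GFP OSKM#2 to 0.71 without KH2_OSKM, and the second H2afz probe in SNEL against OSKM lines (0.55) from 0.33 without BC_2 OSKM to 0.83 without Oct4-GFP SNEL#1. The normexp background shifted the median over all probes to 0.12 for SNEL against OSKM lines, from -0.01. Over all probes the calls for SNEL against OSKM lines were 86 with 20 arrays and the line as a random block, 29 with the replicate block, 7 with slide as a block and 7 with quantile normalization, against 2. For poor against ESC lines these were 36, 29, 10 and 0, against 0. Without Oct4-GFP SNEL#1 the calls for SNEL against OSKM lines were 384, and 0 of them were histone variants. The cause of these changes was not tested. The dim H2afy probe and H1f0 are the values that signal over background limits. Pairing by array number was not shown: over 45 pairs of lines, the deviations of first arrays from their line means correlated at -0.095 to 0.473 (median 0.153), and first arrays lie mostly on slide 1, so array number and slide largely coincide.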
